A study of Mus musculus with 9 samples.

Results

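The genes described here encode the main proteins of the basement membrane: the laminin chains Lama5, Lama4, Lama2, Lamb1, Lamb2 and Lamc1, the collagen IV chains Col4a1 and Col4a2, the linker Nid1 and the proteoglycan Hspg2. They are 10 of the 26202 genes listed for 9 messenger RNA libraries of ATDC5, a chondrogenic mouse line that serves as a model of cartilage formation in culture. The set was chosen by the measured level of Lama5, with the values of these libraries known, because it was higher with acetate and lower with ethanol than in control cells. Levels of Lama5 are therefore a description and carry no test, while the other 9 genes were taken by name as members of the same structure.

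The study asked whether acetate, a product of ethanol metabolism, could mediate toxic effects of ethanol on bone gene expression and chondrocyte differentiation. It had 3 groups of 3 libraries of the same cell line, labelled control, acetate and ethanol. All 3 groups shared DMEM/F-12 with FBS at 5% and Pen/Strepto at 1%, to which beta-glycero phosphate at 10 mM, sodium ascorbate at 50 µg/mL and Insulin-Transferrin-Selenium at 1 X were added when the treatments were given. Neither the dose and time of each treatment nor what control cells received in its place is given in the sources used here. The labels do not say whether the replicates were cultured separately, so a p-value here reflects only how far these samples spread, and that spread may be technical. ATDC5 is 1 cell line, so these values describe 1 genetic background.

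Basement membranes are thin sheets of matrix that lie against cells. Laminins are trimers of an alpha, a beta and a gamma chain that polymerise on the cell surface, collagen IV forms a second, covalently linked network, and nidogens and the heparan sulfate proteoglycan perlecan, the product of Hspg2, tie the networks together. Cartilage has no continuous basement membrane, but chondrocytes place the same proteins in the pericellular matrix that surrounds each cell, and perlecan is needed for normal cartilage.

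Levels are CPM, read numbers scaled to a common library size, on the authors' TMM scale, which also corrects for differences in library composition. Libraries held 28.7 to 41.9 M recovered reads, and 1 read was worth 0.0231 to 0.0348 CPM. Fold changes are differences of the mean log2(CPM + 1), with a standard error (SE), from a limma fit to the 12868 genes whose mean reached 1 CPM. A gene was called where its p-value, adjusted by the Benjamini-Hochberg method over those genes, was under 0.05. All 10 genes passed the filter. The reported fit had no block for the replicate number, so where the numbers paired the groups its p-values leave that pairing out. Acetate replicate 2 stood apart from acetate replicates 1 and 3 along transcript GC content, the percentage of G and C bases, with r = 0.81 across 12745 genes. Its median log2 difference from the other acetate libraries ran from -1.50 over 754 genes with under 40% GC to 0.53 over 539 genes with at least 60% GC. The GC content of the 10 genes ran from 47.7% in Lama2 to 60.9% in Hspg2, and the library's own differences were -0.38 in Nid1, -0.28 in Lama2, -0.18 in Lama4, 0.28 in Lamb1 and 0.32 in Lamc1. They were 0.50 in Col4a1, 0.51 in Col4a2, 0.56 in Hspg2, 0.65 in Lama5 and 0.66 in Lamb2. Results of the acetate group are therefore also given without this library. Over the same 12745 genes, log2 fold changes followed GC content with r = 0.58 for acetate against control and 0.55 for acetate against ethanol. For ethanol against control r was -0.06.

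**Figure D1:**
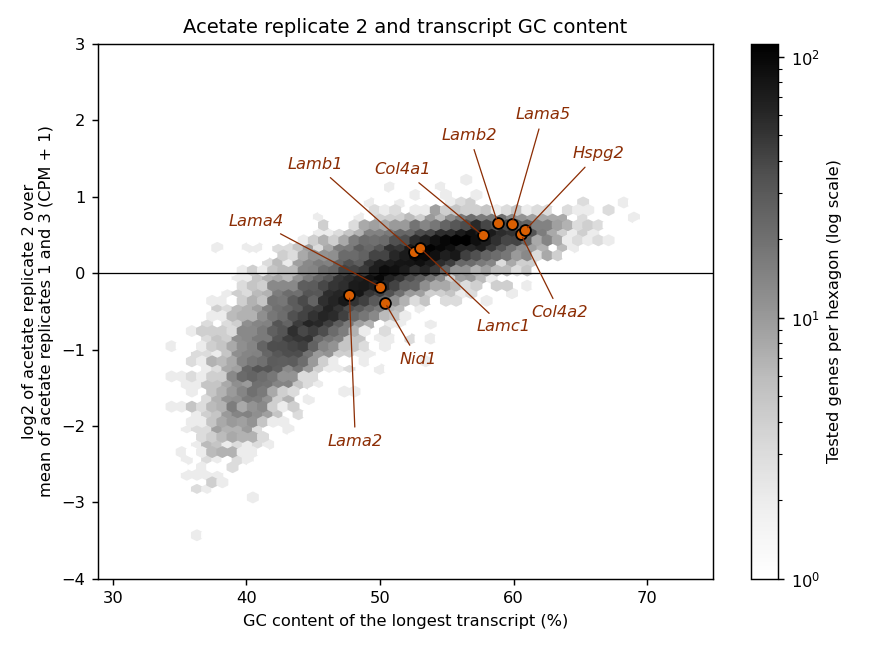
Log2 difference between acetate replicate 2 and the mean of acetate replicates 1 and 3 (vertical axis, CPM + 1) against the GC content of each gene's longest transcript (horizontal axis, percent), with tested genes binned in grey hexagons and the 10 basement membrane genes as orange points. Most points rise with GC content, from Lama2 at -0.28 to Lama5 at 0.65 and Lamb2 at 0.66, while Nid1 at -0.38 and Lama4 at -0.18 lie below the median of 0.20 of genes with 50% to 55% GC.

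Markers of chondrocytes were present, with 7 of 7 at 1 CPM or more when all 9 libraries are averaged, which is how each marker list was read. Their summed level was 9982 to 13039 CPM in control, 5180 to 5830 CPM in acetate and 4691 to 5930 CPM in ethanol libraries, so it was lower in both treated groups. Of the cell types whose basement membranes are richest in these proteins, endothelial markers summed to 3.23 to 3.79 CPM in control, 2.87 to 6.17 CPM in acetate and 4.80 to 5.65 CPM in ethanol libraries, with 2 of 6 at a mean of at least 1 CPM. No epithelial marker of 6 had a mean of 1 CPM, the highest single value being 1.22 CPM in Cdh1, and their sums were 2.63 to 2.76, 1.47 to 2.04 and 1.16 to 1.98 CPM in the same order. Skeletal muscle markers were at 1 CPM or more in 0 of 5 cases, with Myod1 and Myog at 0 in all 9 libraries. Smooth muscle markers reached 1 CPM in 2 of 4 cases, Acta2 and Smtn, and summed to 422 to 542 CPM in control, 587 to 772 CPM in acetate and 437 to 514 CPM in ethanol libraries. The higher acetate sum came from Acta2, at means of 294, 472 and 303 CPM in control, acetate and ethanol. Smtn did not share it, at 195, 181 and 183 CPM. None of 4 adipocyte and none of 4 macrophage markers had a mean of 1 CPM. Schwann cell markers summed to 14.2 to 14.5, 10.3 to 12.7 and 10.2 to 10.8 CPM, with 3 of 4 at 1 CPM or more. The part of the chondrocyte, Acta2 and Schwann marker shifts in the values below was not tested. In bulk RNA, fewer cells of a type and less RNA per cell cannot be told apart.

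Per kilobase of exon, Hspg2 was the most abundant of the 10 transcripts in control cells, at a mean of 60.9 CPM per kb. Lamc1 at 44.4 and Lamb2 at 43.7 CPM per kb followed and did not differ beyond their spread. Next came Lama4 at 19.2, Col4a2 at 13.9, Col4a1 at 10.7 and Lamb1 at 7.10 CPM per kb. Lama5 at 2.15, Nid1 at 0.990 and Lama2 at 0.214 CPM per kb closed the order. Lama4 and Lamb2 thus led the alpha and beta chain genes. The order by mean was the same in the acetate group, where Lama5 stood at 5.85 CPM per kb and Lamc1, at 58.2, lay within the spread of Hspg2 at 60.3 CPM per kb. The acetate libraries of each pair of neighbours from Hspg2 to Lamb1 overlapped, other than Lamb2 and Lama4. In the ethanol group it differed in 1 place, with Col4a2 at 15.8 above Lama4 at 15.2 CPM per kb, and these overlapped, as did Lama5 and Nid1.

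Lama5 encodes the laminin alpha 5 chain, which is widespread in the basement membranes of epithelia and vessels. The gene lies on chr2:180176373-180225859 (GRCm38, minus strand). It measured 25.3, 25.9 and 22.1 CPM in the 3 control libraries. The acetate libraries held 59.9, 88.0 and 51.9 CPM, and the ethanol libraries 14.6, 13.7 and 12.9 CPM. The 3 groups did not overlap: the lowest acetate library lay above the highest control library, and the highest ethanol library lay below the lowest control library. Group means were 24.5 ± 2.04 CPM in control, 66.6 ± 18.9 CPM in acetate and 13.7 ± 0.822 CPM in ethanol (SD, n = 3 each).

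On the log2 scale, Lama5 was 1.38 (SE 0.18) above control with acetate and 0.79 (SE 0.18) below control with ethanol. The direct difference of acetate from ethanol was 2.16 (SE 0.18), a 4.48-fold difference on the CPM + 1 scale. The acetate and ethanol differences from control share the control libraries. Acetate replicate 2 held the highest value, and the acetate mean without it was 55.9 CPM. Without that library the difference was 1.16 from control and 1.95 from ethanol. With the GC trend removed the 3 differences were 1.19, -0.77 and 1.97.

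The stretch upstream of Lama5 is shown because this gene's level differed most between the treatments. It is taken from the RefSeq promoter table (GRCm38.p6), runs from 250 to 51 bases before the start site and lies at chr2:180225910-180226109 on the minus strand. Capitals mark the GC box letters GGGCGG or, on the other strand, CCGCCC.
Lama5 upstream: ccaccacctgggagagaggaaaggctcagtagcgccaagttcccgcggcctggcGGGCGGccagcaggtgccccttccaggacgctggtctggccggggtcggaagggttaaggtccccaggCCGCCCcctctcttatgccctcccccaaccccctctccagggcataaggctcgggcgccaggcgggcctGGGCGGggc
This stretch holds 3 matches, and the whole window of 300 bases holds 4. Of 32851 mouse promoter windows of that length, 35.7% held at least 1 match and 5.49% held at least 4. The table had windows for 8 of the 10 genes, and GC box matches numbered 5 in Hspg2, 3 in Col4a2, 2 in Lamb1, 1 each in Col4a1, Lama2 and Nid1, and 0 in Lamb2. Neither TATAAA nor its reverse TTTATA was found in the 8 windows, against 13.6% of all windows with a match. CCAAT or ATTGG was found in Lamb1, Col4a1, Col4a2 and Nid1, against 37.4% of all windows.

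**Figure D2:**
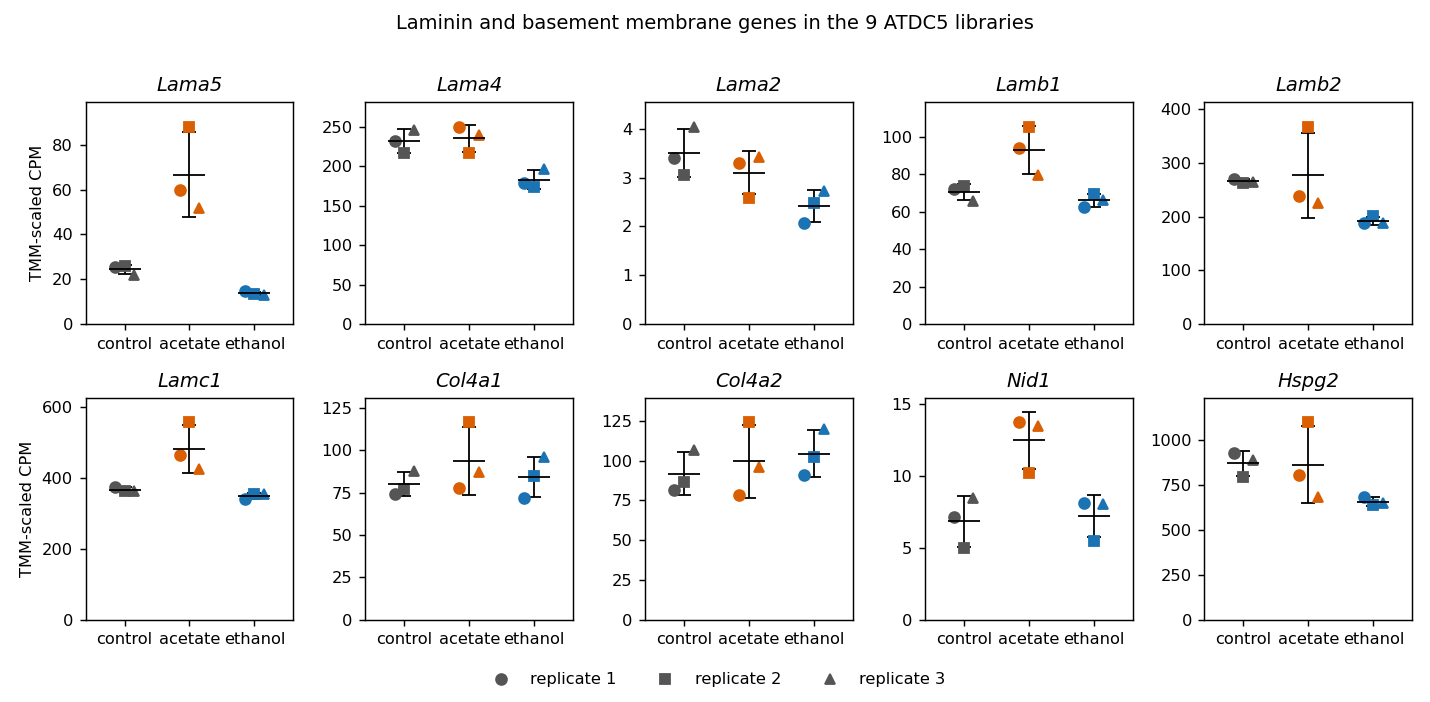
TMM-scaled CPM (vertical axis, from 0) of the 10 genes in the 9 libraries, by group; symbols are replicates 1 to 3, the long bar is the group mean and the whiskers are 1 SD (n = 3). Lama5 forms 3 separate groups, from 12.9 to 14.6 CPM with ethanol to 51.9 to 88.0 CPM with acetate, whereas Col4a1 and Col4a2 overlap in all groups.

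Lama4 and Lama2 encode the other alpha chains with a mean of at least 1 CPM. Lama4, whose product is typical of vascular and mesenchymal basement membranes, lies on chr10:38965515-39110188. It measured 233, 217 and 247 CPM in control, 250, 216 and 240 CPM in acetate and 179, 174 and 197 CPM in ethanol libraries. All ethanol libraries lay below all control and all acetate libraries, while control and acetate overlapped. Lama4 differed from control by 0.02 (SE 0.11, adjusted p = 0.93) with acetate and by -0.34 (SE 0.11, adjusted p = 0.13) with ethanol in the limma fit, and neither passed the threshold.

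Lama2 encodes the alpha chain of muscle and Schwann cell laminins and lies on chr10:26980036-27619758 (minus strand). It was near the lower end of what these libraries measure, at 73 to 159 reads per library. Its values were 3.41, 3.06 and 4.04 CPM in control, 3.30, 2.59 and 3.41 CPM in acetate and 2.07, 2.48 and 2.72 CPM in ethanol libraries. The ethanol libraries lay below the control libraries and overlapped the acetate libraries. The differences from control were -0.13 (SE 0.14, adjusted p = 0.59) with acetate and -0.39 (SE 0.14, adjusted p = 0.16) with ethanol by limma. The remaining alpha chain genes, Lama1 and Lama3, were under the filter at group means of 0.391 to 1.01 and 0.601 to 1.12 CPM.

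The make-up of the alpha chains differed between the groups. Of the summed CPM per kb of the 5 alpha chain genes, Lama5 made up 10.2%, 11.1% and 8.54% in control, 19.97%, 29.8% and 18.4% in acetate and 7.79%, 7.52% and 6.36% in ethanol libraries. These shares did not overlap between groups, and they follow from the Lama5 values that chose the set. Lama4 made up 88.6% ± 1.10 in control, 76.0% ± 6.08 in acetate and 90.7% ± 0.569 in ethanol (SD, n = 3 each). The ratio of Lama4 to Lama5 per kb was 9.03 ± 1.34 in control, 3.54 ± 1.08 in acetate and 12.7 ± 1.49 in ethanol (SD, n = 3 each). It ranged from 2.32 in acetate replicate 2 to 14.4 in ethanol replicate 3. With the longest annotated transcript as the length, the Lama5 share was 5.26%, 13.0% and 3.78% in control, acetate and ethanol, since the exon union of Lama4 is longer than its longest transcript.

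**Figure D3:**
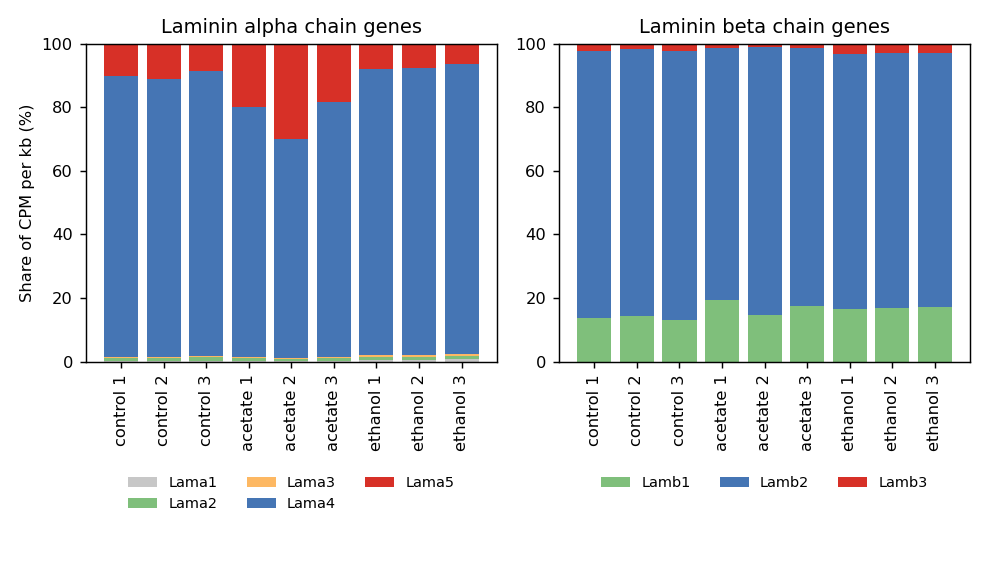
Share of each gene in the summed CPM per kb of the laminin alpha and beta chain genes (vertical axis, percent, each bar sums to 100) in each of the 9 libraries. The Lama5 share is 18.4% to 29.8% in the acetate libraries and 6.36% to 11.1% in the others, and Lama4 and Lamb2 lead their classes in every library.

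Lamc1 and Lamb1 encode the gamma 1 and beta 1 chains, which are found in many laminins and, like the beta 2 chain, can join the alpha 5 chain. Lamc1 (chr1:153218922-153332786, minus strand) measured 374.5, 363 and 364 CPM in control, 464, 556 and 425 CPM in acetate and 339, 354 and 354 CPM in ethanol libraries. All acetate libraries lay above all control libraries, and all ethanol libraries lay below them by a small margin. Lamb1 (chr12:31265234-31329644) measured 71.9, 73.8 and 65.5 CPM in control, 94.1, 105 and 79.3 CPM in acetate and 62.6, 69.3 and 65.9 CPM in ethanol libraries. Its acetate libraries also lay above all others, while control and ethanol overlapped. By limma, Lamc1 differed from control by 0.38 (SE 0.12, adjusted p = 0.19) with acetate and by -0.07 (SE 0.12, adjusted p = 0.82) with ethanol. Lamb1 differed by 0.39 (SE 0.13, adjusted p = 0.20) and -0.09 (SE 0.13, adjusted p = 0.77). Between acetate and ethanol, Lamc1 differed by 0.45 (SE 0.12) and Lamb1 by 0.48 (SE 0.13), both with an adjusted p of 0.072 by limma.

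Lamb2 encodes the beta 2 chain, known from the basement membranes of kidney glomeruli, vessels and neuromuscular junctions, and lies on chr9:108479736-108490530. It measured 270, 263 and 264 CPM in control, 238, 367 and 226 CPM in acetate and 188, 201 and 188 CPM in ethanol libraries. The ethanol libraries lay below all others. In the acetate group replicates 1 and 3 lay below and replicate 2 above the control libraries, so the difference of acetate from control was 0.02 (SE 0.17, adjusted p = 0.94) with replicate 2 and -0.20 without it. Ethanol differed from control by -0.47 (SE 0.17, adjusted p = 0.19 by limma). The remaining beta chain gene, Lamb3, had group means in the opposite order to those of Lama5, with 6.98 ± 1.06 CPM in control, 4.197 ± 0.703 in acetate and 7.72 ± 0.720 in ethanol (SD, n = 3 each).

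Col4a1 and Col4a2 encode the most widespread collagen IV chains and lie head to head on chromosome 8, at chr8:11198423-11312826 (minus strand) and chr8:11312805-11449287 (plus strand). Their annotated models overlap by 22 bases, at chr8:11312805-11312826. These bases are shown because the genes start from them in opposite directions, with the GC box letters in capitals. Both strands are taken from the RefSeq promoter windows (GRCm38.p6).
Col4a2, first bases: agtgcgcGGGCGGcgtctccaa
Col4a1, first bases: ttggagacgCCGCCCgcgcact
Col4a1 measured 74.5, 77.3 and 88.0 CPM in control, 77.7, 117 and 87.2 CPM in acetate and 71.8, 85.1 and 95.9 CPM in ethanol libraries. Col4a2 measured 81.7, 86.5 and 107 CPM in control, 78.6, 124 and 95.9 CPM in acetate and 90.8, 102 and 120 CPM in ethanol libraries. All 3 groups overlapped for both genes. The ratio of Col4a2 to Col4a1 per kb stayed between 1.14 and 1.42 in the 9 libraries, with group means of 1.29 in control, 1.19 in acetate and 1.40 in ethanol. By limma Col4a1 differed from control by 0.21 (SE 0.17, adjusted p = 0.51) with acetate and by 0.07 (SE 0.17, adjusted p = 0.89) with ethanol. Col4a2 differed by 0.10 (SE 0.19, adjusted p = 0.77) and 0.19 (SE 0.19, adjusted p = 0.66). Whether reads were counted by strand is not given in the sources used here, and antisense genes are annotated within Col4a1, Col4a2, Nid1 and Lama2.

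Nid1 encodes nidogen 1, which binds the laminin gamma 1 chain and collagen IV, and lies on chr13:13437551-13512269. It measured 7.17, 4.97 and 8.48 CPM in control, 13.7, 10.2 and 13.5 CPM in acetate and 8.11, 5.51 and 8.05 CPM in ethanol libraries. The acetate libraries lay above all others, and control and ethanol overlapped. Its difference from control was 0.79 (SE 0.21, adjusted p = 0.12 by limma) with acetate and 0.07 (SE 0.21, adjusted p = 0.91) with ethanol. Acetate replicate 2 held the lowest acetate value, unlike for Lama5. Nid1 rose by 0.92 (adjusted p = 0.036 by limma) when that library was left out, and its adjusted p over all settings run went from 1.09e-10 to 0.378. Those settings include a fit without acetate replicate 2 and with the replicate number as a block, which called 2773 of the 12868 tested genes. The second nidogen gene, Nid2, was far more abundant, at 36.1 to 138 times the Nid1 level per kb.

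Hspg2 encodes perlecan and lies on chr4:137468769-137570630. It measured 929, 793 and 889 CPM in control, 805, 1097 and 685 CPM in acetate and 683, 641 and 648 CPM in ethanol libraries. The ethanol libraries lay below all others, the highest of them only just. By limma the difference from control was -0.04 (SE 0.17, adjusted p = 0.91) with acetate, where the replicates spread on both sides of control, and -0.40 (SE 0.17, adjusted p = 0.23) with ethanol. Without acetate replicate 2 the acetate difference was -0.23.

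**Figure D4:**
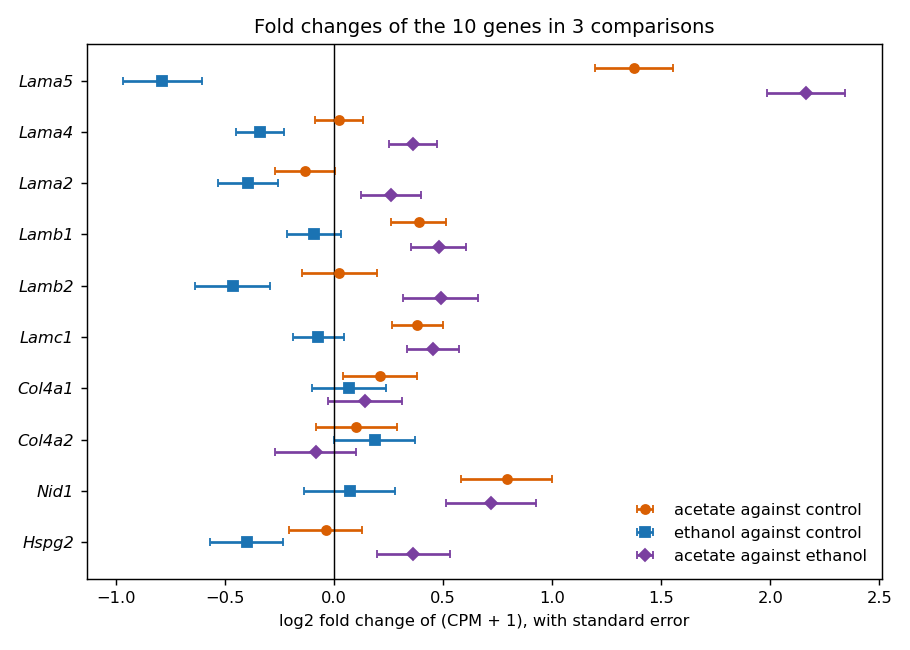
Log2 fold changes (horizontal axis, of CPM + 1) of the 10 genes in the 3 comparisons of groups; points are estimates from all 9 libraries and bars are 1 standard error. Lama5 lies at 1.38, -0.79 and 2.16, outside the range of the other 9 genes in each comparison, and Nid1 has the next highest values with acetate, 0.79 and 0.72.

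Over the 9 genes other than Lama5, none was called with acetate against control, where 1.00% of all tested genes were called, and 3 had an unadjusted p under 0.05 by limma (14.6% of all genes). Nid1, Lamb1 and Lamc1 were higher in every acetate library than in any control library, 3 of 9 genes, against 11.4% of all genes. None of the 9 lay lower without overlap, against 8.14% of all genes. Their median log2 difference was 0.10, beside -0.01 over all genes. This offset was not kept with the GC trend removed, where the medians were 0.010 and 0.024. Without acetate replicate 2 they were 0.045 and 0.019. Without acetate replicate 2, Nid1 alone was called (1.95% of all genes were called higher in that fit, 0.505% with all libraries). With all libraries and the replicate block Nid1 was also called (adjusted p = 0.018 by limma), beside 293 of the 12868 tested genes. With the GC trend removed as well, Nid1 (8.2e-04), Lamb1 (0.029) and Lamc1 (0.022) were called higher, beside 1814 genes called in either direction.

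With ethanol against control, none of the 9 genes was called by limma, where 3.93% of all tested genes were, and 4 had an unadjusted p under 0.05 (19.0% of all genes). Lama2, Lama4, Lamb2, Lamc1 and Hspg2 lay below control without overlap, 5 of 9 genes, against 23.3% of all genes. None lay above control without overlap, against 20.1% of all genes. The median difference was -0.09, beside -0.00 over all genes. Here the calls depended on acetate replicate 2, which enters this comparison only through the shared variance. Without it Lamb2 fell by 0.47 (adjusted p = 0.0015 by limma), Hspg2 fell by 0.40 (0.015), Lama2 fell by 0.39 (0.040) and Lama4 fell by 0.34 (0.014). In that fit 11.3% of all genes were called lower. With the GC trend removed the same 4 genes were called, with adjusted p-values of 0.0078, 0.040, 0.047 and 0.038 by limma and 7.47% of all genes called lower. The replicate numbers were taken to pair these groups, and with the number as a block none of the 9 was called, beside 5.07% of all genes called lower. With the block and the GC trend removed, the same 4 genes were called (adjusted p = 0.0021 to 0.015 by limma), beside 4024 of the 12868 tested genes. A fit of only the 6 libraries compared also called them (0.0012 to 0.043), beside 3443 genes. Over all settings run the highest adjusted p was 0.487 for Lamb2, 0.592 for Hspg2, 0.410 for Lama2 and 0.414 for Lama4. The lowest were 3.03e-11, 3.92e-07, 7.86e-04 and 1.70e-06, all with acetate replicate 2 left out and a replicate block fitted. That fit called 6466 of the 12868 tested genes. It leaves few degrees of freedom per gene, so its p-values lean on the variances of other genes.

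Between acetate and ethanol, none of the 9 genes was called by limma, where 3.73% of all tested genes were, and 5 had an unadjusted p under 0.05 (21.1% of all genes). Nid1, Lamb2, Lamb1, Lamc1, Hspg2 and Lama4 were higher in every acetate than in any ethanol library, 6 of 9 genes, against 15.3% of all genes. None was lower without overlap, against 12.5% of all genes. The median difference was 0.36, beside -0.01 over all genes. With the GC trend removed it was 0.34 beside 0.02, and without acetate replicate 2 it was 0.35 beside 0.02. Nid1 differed by 0.72 (SE 0.21, adjusted p = 0.096), Lamb2 by 0.49 (SE 0.17, adjusted p = 0.16), Lama4 by 0.36 (SE 0.11, adjusted p = 0.11) and Hspg2 by 0.36 (SE 0.17, adjusted p = 0.25). Lama2 differed by 0.26 (SE 0.14, adjusted p = 0.30), Col4a1 by 0.14 (SE 0.17, adjusted p = 0.61) and Col4a2 by -0.08 (SE 0.19, adjusted p = 0.79), all with overlap.

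The acetate-ethanol calls also depended on the libraries fitted. Without acetate replicate 2, Nid1 (0.85, adjusted p = 0.028), Lama4 (0.42, adjusted p = 0.016), Lamb1 (0.39, adjusted p = 0.035) and Lamc1 (0.35, adjusted p = 0.023) were higher with acetate by limma, and 5.72% of all genes were. Without acetate replicate 3, Lamb1 (0.59, adjusted p = 0.034) and Lamc1 (0.54, adjusted p = 0.041) were. The share of all genes called higher in that fit is not given here. The replicate numbers were taken to pair these groups. With the number as a block Nid1 (adjusted p = 0.011) and Lamb1 (adjusted p = 0.043) were called higher, beside 4.67% of all genes. With the GC trend removed, Lama4 (0.35, adjusted p = 0.042), Lamb1 (0.39, adjusted p = 0.026), Lamb2 (0.30, adjusted p = 0.049) and Lamc1 (0.36, adjusted p = 0.019) were called, beside 6.48% of all genes called higher. The highest adjusted p over all settings run was 0.321 for Nid1, 0.358 for Lama4, 0.228 for Lamb1, 0.379 for Lamb2 and 0.228 for Lamc1. The lowest were 4.91e-09, 1.34e-05, 1.24e-06, 0.0018 and 1.42e-04. Those settings include the fit without acetate replicate 2 and with the block, which called 4262 of the 12868 tested genes.

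The wider basement membrane was read from 31 further components, of which 22 passed the filter. Lama1, Lama3, Lamc3 and Col4a3 were among the 9 that did not. With acetate against control 1 was called higher and 0 lower, beside 0.505% and 0.497% of all genes. This was Fbln1, the gene of the matrix glycoprotein fibulin 1, at 7.86, 8.49 and 7.62 CPM in control and 16.4, 23.5 and 13.4 CPM in acetate libraries. It rose by 1.03 (SE 0.18, adjusted p = 0.039 by limma), and the call ended without any 1 control library, acetate replicate 1 or any 1 ethanol library, with adjusted p-values of 0.057 to 0.196. It also ended with no filter (0.076), a filter at 5 CPM (0.057), quantile scaling (0.070) and a fit of only the 6 libraries compared (0.175). Of the other laminin chains, Lamb3 differed by -0.62 (SE 0.15, adjusted p = 0.090), and Nid2 differed by -0.48 (SE 0.12, adjusted p = 0.10). Without acetate replicate 2 both passed the threshold, at -0.72 (adjusted p = 0.020) and -0.54 (adjusted p = 0.019) by limma, and the list held 2 higher and 2 lower calls, beside 1.95% and 1.53% of all genes. Over all settings run, the highest adjusted p of Lamb3 and Nid2 was 0.382 and 0.405, and the lowest was 2.39e-10 and 2.20e-11. Those settings include the fit without acetate replicate 2 and with the block, which called 2773 of the 12868 tested genes.

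With ethanol against control, 1 of the 22 components was called higher and 3 lower, beside 1.48% and 2.45% of all genes, and the list's median was -0.28. Nid2 fell from 564 ± 47.6 CPM in control to 359 ± 20.8 CPM in ethanol (SD, n = 3 each), a log2 difference of -0.65 (SE 0.12, adjusted p = 0.021 by limma). The acetate libraries held 409, 441 and 364 CPM, also below every control library. Col4a6, a minor collagen IV chain, fell from 7.40 ± 0.708 to 3.02 ± 0.660 CPM, or by 1.07 on the log2 scale (SE 0.17, adjusted p = 0.011), and its acetate mean was 8.63 ± 1.83 CPM (SD, n = 3 each). Sparc, whose product binds collagen, fell by 0.57 (SE 0.11, adjusted p = 0.030), but with quantile scaling its difference was 0.05, and with no filter its adjusted p was 0.384. Fras1, of the Fraser complex, rose by 0.72 (SE 0.16, adjusted p = 0.038), from 2.87 ± 0.650 to 5.31 ± 0.344 CPM (SD, n = 3 each), a call that ended with no filter (adjusted p = 0.070) and with quantile scaling (0.060). Col4a5, per kb the leading collagen IV chain in control cells at 44.8 CPM per kb, measured 301 ± 31.8 CPM in control, 249 ± 38.3 in acetate and 207 ± 14.2 in ethanol (SD, n = 3 each). Its ethanol difference was -0.54 (SE 0.14, adjusted p = 0.070). The replicate numbers were taken to pair these groups, and with the block 1 component was higher and 6 lower, beside 3.27% and 5.07% of all genes. Col4a5 was among the lower (adjusted p = 0.020 by limma). Over all settings run its adjusted p was 1.59e-14 to 0.263, the fit without acetate replicate 2 and with the block included. Leaving out control replicate 1, ethanol replicate 1 or ethanol replicate 2 left no call. Leaving out control or ethanol replicate 3 left 1, and leaving out control replicate 2 left 2. Over all genes the count fell too, from 506 to 98 without control replicate 1. With acetate replicate 2 left out the list held 2 higher and 10 lower calls, beside 10.2% and 11.3% of all genes.

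Between acetate and ethanol, 5 components were called higher and 1 lower, beside 2.84% and 0.886% of all genes, and the median was 0.20. With the GC trend removed the median was 0.09, beside 0.02 over all genes. Col4a6 was higher by 1.25 (adjusted p = 0.0063 by limma), Fbln1 by 1.25 (0.0081) and Col15a1, a collagen that anchors basement membranes to the stroma, by 1.18 (0.0057), and these 3 calls held with any 1 library left out. In a fit of only the 6 libraries compared, the Fbln1 call ended (adjusted p = 0.056 by limma). Col15a1 measured 30.3 ± 3.62 CPM in acetate and 12.9 ± 1.86 CPM in ethanol, on either side of 20.3 ± 3.24 CPM in control (SD, n = 3 each). Col18a1, the source of endostatin, was higher by 0.83 (0.042), and Lamb3 was lower by 0.75 (-0.75, adjusted p = 0.024). The number of higher calls was 3 without control replicate 1 or 2 or any 1 ethanol library, and no lower call was left without any 1 ethanol library. Over all genes the count fell too, from 480 to 103 without ethanol replicate 2. Lamb3 was also lost without acetate replicate 1, where another component was called lower. Lamb3 and Col18a1 were lost with no filter (adjusted p = 0.055 and 0.083) and with only 6 libraries (0.076 and 0.154), and Col18a1 also with a filter at 5 CPM or another scaling (0.053 to 0.099). Agrn, the gene of the proteoglycan agrin, measured 127 ± 5.97 CPM in control, 165 ± 49.3 in acetate and 138 ± 8.30 in ethanol (SD, n = 3 each), and the minor collagen IV chain gene Col4a4 measured 1.45 ± 0.794, 1.84 ± 0.287 and 1.48 ± 0.301 CPM. Neither was called in any of the 3 comparisons, and their groups overlapped in each.

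The list of receptors of these proteins numbered 24 genes, of which 23 passed the filter. It also holds the tetraspanin gene Cd151, the sarcoglycan genes Sgcb, Sgcd and Sgce, and Rpsa, which encodes a ribosomal protein. With acetate 1 was called lower, beside 0.497% of all genes. This was Itgb4, whose product pairs with integrin alpha 6 as a laminin receptor. It measured 15.7, 14.5 and 16.3 CPM in control, 8.15, 8.77 and 6.78 CPM in acetate and 12.6, 11.2 and 11.6 CPM in ethanol libraries, so acetate lay lowest and ethanol between. It fell by 0.89 (SE 0.12, adjusted p = 0.016 by limma) with acetate. Leaving out control replicate 1, 2 or 3 ended the call, with adjusted p-values of 0.110, 0.060 and 0.077, as did a fit of only the 6 libraries compared (0.109). With ethanol none of the 23 was called, beside 3.93% of all genes, 5 had an unadjusted p under 0.05, beside 19.0%, and 20 had a negative difference, with a median of -0.18 beside -0.00 over all genes. With the replicate block 1 was called lower, Rpsa, beside 5.07% of all genes. With acetate replicate 2 left out 5 were, Itga7, Itgb4, Rpsa, Sdc3 and Sgcd, beside 11.3% of all genes. Rpsa and Sgcd are named after their values were seen, and their calls are not read as changes of receptors. Between acetate and ethanol 2 were higher and 1 lower, beside 2.84% and 0.886% of all genes. The laminin receptor gene Itga7 measured 48.2 ± 10.7 CPM in acetate and 21.9 ± 1.50 CPM in ethanol (SD, n = 3 each) and differed by 1.08 (SE 0.17, adjusted p = 0.0096 by limma). The syndecan gene Sdc3 differed by 0.69 (SE 0.15, adjusted p = 0.034) and Itgb4 by -0.53 (SE 0.12, adjusted p = 0.044). Of these 3, none was left without ethanol replicate 2, and 1 was left without any 1 control library, acetate replicate 1 or ethanol replicate 1 or 3. Over all genes the count fell too, from 480 to 103 without ethanol replicate 2. Itgb4 was also lost without acetate replicate 3. With only 6 libraries none of the 3 was called (adjusted p = 0.053 to 0.158). With no filter Sdc3 (0.095) and Itgb4 (0.079) were lost, and Itgb4 also with a filter at 5 CPM (0.054) and with quantile scaling (0.093).

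Enzymes and chaperones of assembly, modification and turnover numbered 37, of which 35 passed the filter. With acetate against control none was called by limma, beside 1.00% of all genes. Of the 35, 6 had an unadjusted p under 0.05, beside 14.6% of all genes, and the median was -0.00 beside -0.01. P3h1, named after its values were seen, was called lower once acetate replicate 2 was left out. With ethanol 7 were lower and 0 higher, beside 2.45% and 1.48% of all genes, and the median was -0.26 beside -0.00. P4ha1 and P4ha2, which encode collagen prolyl 4-hydroxylase subunits, fell by 1.06 (SE 0.15, adjusted p = 0.0070 by limma) and 1.04 (SE 0.16, adjusted p = 0.0089). P4ha1 went from 1117 ± 89.6 CPM in control to 533 ± 23.2 CPM in ethanol, and its acetate mean was 972 ± 202 CPM (SD, n = 3 each). Loxl2, which crosslinks collagen IV, fell by 1.06 (SE 0.17, adjusted p = 0.012), from 8.75 ± 1.69 to 3.68 ± 0.729 CPM (SD, n = 3 each). The protease gene Adamts1 fell by 0.97 (SE 0.12, adjusted p = 0.0037), and its call held with any 1 library left out. Leaving out control replicate 1 left 1 lower call, ethanol replicate 2 left 2, control replicate 3 left 3 and control replicate 2 or ethanol replicate 1 or 3 left 4. Over all genes the count fell too, from 506 to 98 without control replicate 1. With acetate replicate 2 left out there were 16 lower and 3 higher calls, beside 11.3% and 10.2% of all genes.

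Between acetate and ethanol, 9 of these enzyme genes were higher and 0 lower, beside 2.84% and 0.886% of all genes, with a median of 0.24 beside -0.01. With the GC trend removed the median was 0.15 beside 0.02. Loxl2 differed by 1.18 (SE 0.17, adjusted p = 0.0080 by limma), Adamts1 by 0.96 (SE 0.12, adjusted p = 0.0036), P4ha2 by 0.87 (SE 0.16, adjusted p = 0.018) and P4ha1 by 0.85 (SE 0.15, adjusted p = 0.016). The Loxl2 and Adamts1 calls held with any 1 library left out, and those of P4ha1 and P4ha2 ended with only 6 libraries (adjusted p = 0.078 and 0.081). The count fell to 2 without ethanol replicate 2, to 3 without ethanol replicate 1 or 3, to 5 without control replicate 1 or acetate replicate 1 and to 6 without control replicate 2 or 3. Over all genes the count fell too, from 480 to 103 without ethanol replicate 2, so the fall is not particular to these enzymes.

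**Figure D5:**
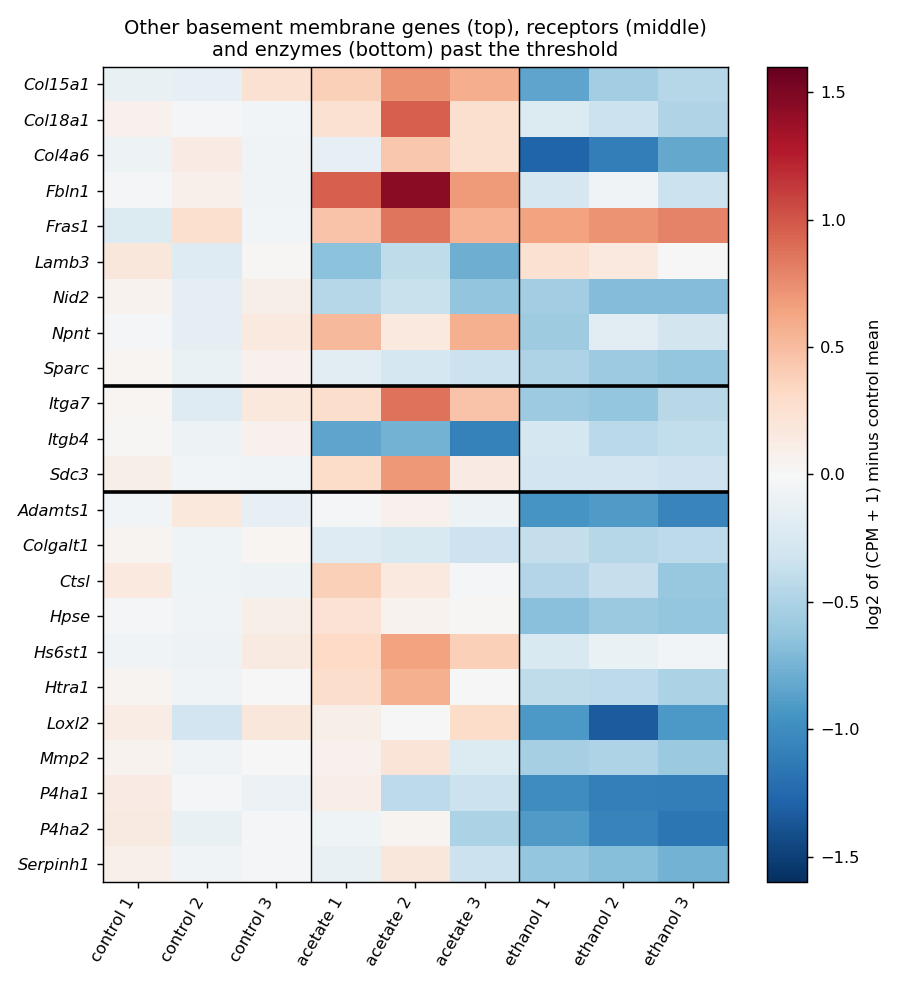
Log2(CPM + 1) minus the control mean (colour) of the 23 listed genes past the threshold in at least 1 comparison (vertical) in the 9 libraries (horizontal): other basement membrane components on top, receptors in the middle, enzymes below. The enzyme genes Adamts1, Loxl2, P4ha1 and P4ha2 are blue in all 3 ethanol libraries, and Fbln1 is red in all 3 acetate libraries.

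Across the 9 libraries, the pattern of Lama5 was compared with that of 10932 genes whose mean reached 5 CPM, by Pearson's r of log2(CPM + 1). This is a description over 9 libraries that share their groups and, in acetate replicate 2, the GC trend. The most similar genes were Plb1 (r = 0.985), Mgat3 (r = 0.983), Kcnh2 (r = 0.981), Adamtsl2 (r = 0.980) and Niban1 (r = 0.979). Kcnh2, for example, measured 12.2 ± 0.246 CPM in control, 21.7 ± 5.60 in acetate and 8.70 ± 0.894 in ethanol (SD, n = 3 each). The most opposite were Tada1 (r = -0.974), Gm7931 (r = -0.974), Mmp19 (r = -0.969), Hmgn2 (r = -0.968) and Rcbtb2 (r = -0.967). Among the laminin and basement membrane genes, Lamc1 ranked 56 (r = 0.942) and Lamb1 ranked 90 (r = 0.932). Lamb2 (r = 0.733), Nid1 (r = 0.673), Lama4 (r = 0.644) and Hspg2 (r = 0.636) were further away. Col4a1 (r = 0.411) and Col4a2 (r = -0.041) varied least with Lama5, and Lama2 was under the 5 CPM limit.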

How the data were processed

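The authors deposited log2 values in a single table of 26202 genes, whose name calls them TMM-normalised counts. Per the submitters' processing notes, the build was mm10 and the tools were STAR 2.7.8a, Bowtie2 2.2.5 and Partek, without their roles. Neither counting step nor annotation is given in the sources used here. The labels' treatment protocol describes other material and was not used.

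Each library's floor for genes without reads was subtracted after raising the values to a power of 2, which gave TMM-scaled CPM. From that floor 28.7 to 41.9 M reads per library were recovered. Values of up to 20 reads came out whole, to within 0.02, in 85.7% to 87.4% of cases, too few for a count test.

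Genes whose mean reached 1 CPM were fitted with limma 3.58.1 in R 4.3.3 on log2(CPM + 1), with 1 mean per group over all 9 libraries, a variance trend and Benjamini-Hochberg adjustment. The code was tested on simulated data. Tables were made with Python 3.11.15 and pandas 2.3.3. Gene positions, exon lengths and GC content come from GENCODE M21 (GRCm38), matched by symbol for 24919 genes and by synonym for 423. Promoters come from RefSeq (GRCm38.p6).

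The members, gene lists and tests were chosen with earlier results of these data known. One item of the component list is not reported here and was left out of its counts. All 10 members and other laminin and collagen IV chains are named, with Nid2, Agrn, Col15a1 and Col18a1. From each list up to 4 called genes per comparison are named, by size of change, and the 5 genes most and least like Lama5.

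Same-numbered libraries deviated together between ethanol and control (r = 0.55, 0.36 and 0.67 over 12868 genes) and between acetate and ethanol (0.15, 0.25 and 0.61). Between acetate and control they did so less clearly (0.25, -0.10 and 0.41), and the negative value is that of the pair with acetate replicate 2. This does not show acetate and control to be unpaired. From these values the first 2 comparisons were taken as paired by number. Acetate replicate 2 with ethanol replicate 1 gave 0.18, above the 0.15 of the first same-numbered pair. The reported fits had no block. Their reported p-values therefore leave the pairing out, and the block is given as an alternative. Alternatives were a replicate block, another pseudocount, other filters, scalings and variance models, fits to 6 libraries, a GC trend removed from each library by lowess, and leaving out each library.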

Additional observations from a re-analysis of the deposited data

How the results depend on the processing

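Between acetate and control, 129 genes passed the threshold, 293 with the replicate block, 52 with a filter at 5 CPM, 20 in a fit of only the 6 libraries compared, 632 with the GC trend removed and 1814 with both that and the block. For ethanol against control the count was 506, and 1074, 283, 3443, 1809 and 4024 in the same order. For acetate against ethanol it was 480, and 823, 307, 107, 1252 and 3315. With 1 library left out the counts ran from 0 (without control replicate 3) to 448, from 98 (without control replicate 1) to 2766 and from 103 (without ethanol replicate 2) to 1108, each highest without acetate replicate 2. Leaving that library out and fitting the block together gave 2773, 6466 and 4262. Of the 9 genes other than Lama5, acetate against control held 0 calls, with 1 higher under the block (Nid1, adjusted p = 0.018 by limma), 3 higher with the GC trend and block, and 0 to 3 higher and 0 to 1 lower with libraries left out. Same-numbered libraries deviated together less clearly between these groups, with r = 0.25, -0.10 and 0.41, which does not show them to be unpaired. Ethanol against control held 4 lower calls with only 6 libraries, with the GC trend removed and with the GC trend and block, and 0 to 4 lower and 0 to 1 higher with libraries left out. Acetate against ethanol held 2 higher with the block, 4 with the GC trend removed, 6 higher and 1 lower with the GC trend and block, and 0 to 6 higher and 0 to 1 lower with libraries left out. The block left the listed calls of the report in place.

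The called ethanol-control difference of Sparc, -0.57, was 0.0536 with quantile scaling. The other sign changes were of differences that were not called. With acetate against control, median-of-ratios scaling gave -0.0067 for Lama4 and -0.0025 for Lamb2, removing the GC trend gave -0.148 for Lamb2 and -0.0827 for Col4a2 with or without the block, and quantile scaling gave 0.0252 for Hspg2. With ethanol against control quantile scaling gave 0.0141 for Lamc1. With acetate against ethanol removing the GC trend gave -0.0378 for Col4a1, with or without the block. With libraries left out, the acetate-control difference ran from -0.0267 to 0.0798 for Lama4, from -0.197 to 0.153 for Lamb2, from -0.0682 to 0.257 for Col4a2 and from -0.226 to 0.114 for Hspg2. The ethanol-control difference ran from -0.0283 to 0.177 for Col4a1 and from -0.115 to 0.232 for Nid1, and the acetate-ethanol difference from -0.0235 to 0.266 for Col4a1 and from -0.254 to 0.0718 for Col4a2. Without acetate replicate 2 and with the block, the acetate-control difference was -0.185 for Lamb2 and -0.0914 for Col4a2, and the acetate-ethanol difference of Col4a1 was -0.0287. Lama5 kept its direction in all settings run, with 1.16 to 1.53, -0.86 to -0.75 and 1.95 to 2.32 in the 3 comparisons. With the longest transcript as length, the shares in control, acetate and ethanol were 5.26%, 13.0% and 3.78% for Lama5, 93.6%, 86.0% and 94.8% for Lama4 and 77.6%, 74.0% and 72.4% for Lamb2. Beyond the change of length, samples or genes tested, the cause was not tested. Lama2 and Nid1 were read at 73 to 541 reads per library, which limits their precision.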
